A study of Mus musculus with 16 samples.

Results

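The genes described here are targets of the transcription factor p53 in cells of the mouse olfactory mucosa after exposure to cigarette smoke odor. They are Cdkn1a, Ccng1, Mdm2, Zmat3, Trp53inp1, Fas, Bbc3 and Bax, chosen by name as p53 targets with earlier results of these data known. Each gene stands for its probe set with the highest mean over the arrays. Of the 8 genes listed, 7 were measured among the 19505 genes with a symbol, each by 1 probe set, and Bax was not analysed here. The study measured RNA on 16 Clariom S arrays of S100a5-tauGFP mice, in which green fluorescent protein (GFP) reports S100a5, a gene for a calcium sensor that olfactory sensory neurons transcribe after they have been active. The 24 mice of both sexes, 7 to 12 weeks old, were housed singly for 40 h in chambers flushed with clean air at 3.1 L per min. After 26 h, odor pulses of 10 s at intervals of 20 min were given to 4 pools of 3 mice as cigarette smoke, while the other 4 pools had filtered air, the vehicle. Sorting divided the cells of each pool by GFP, which gave 4 groups of 4 arrays: smoke GFP+, vehicle GFP+, smoke GFP- and vehicle GFP-. All groups carry the reporter and come from dissociated tissue, and the GFP sort follows the activity of the S100a5 gene, not a lineage.

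The p53 protein is a transcription factor that is kept low in resting cells by Mdm2, a ubiquitin ligase that is itself a p53 target, and that accumulates after DNA damage and other stress. Its targets stop the cell cycle, mainly through the cyclin-dependent kinase (CDK) inhibitor p21 encoded by Cdkn1a, or promote cell death through Fas, Bbc3 and Bax. Several of them are also transcribed under the control of other factors, so the level of a target is not a reading of p53 activity. In the olfactory epithelium, neurons are replaced throughout life from dividing basal cells, and Cdkn1a is among the genes through which cells leave the cycle.

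The promoters of the targets were read for the p53 consensus because it is the feature that they are known for. A p53 site consists of a pair of short palindromic units with a spacer of 0 to 13 bases. The mouse promoter windows of RefSeq on the build GRCm38.p6, 300 bases from 250 before to 50 after a transcript start, were available for 6 of the 8 listed genes in 9 windows, and Zmat3 and Trp53inp1 had none. The consensus unit, which reads alike on both strands, was found in 4 of the 9 windows, those of Cdkn1a, Mdm2, Ccng1 and Bax, and in 8.36% of all 32851 windows. A complete site, as an exact match to both units, was found in 1 of the 9 windows, the upstream window of Cdkn1a. The same held for 0.0731% of all windows, which are 24 windows. The 3 windows below are those of Cdkn1a, the gene with the largest smoke difference of the set, and of Mdm2 and Ccng1, which carried 1 unit each. Units are in capitals, and each sequence is written 5′ to 3′ on the strand of its gene.
Cdkn1a, upstream start, chr17:29090729-29091028, plus strand: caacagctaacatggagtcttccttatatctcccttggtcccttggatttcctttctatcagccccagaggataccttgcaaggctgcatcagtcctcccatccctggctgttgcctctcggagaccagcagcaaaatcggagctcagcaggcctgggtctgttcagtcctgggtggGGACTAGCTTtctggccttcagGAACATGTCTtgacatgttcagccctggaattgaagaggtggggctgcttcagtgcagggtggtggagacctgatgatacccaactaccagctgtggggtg
Mdm2, chr10:117710709-117711008, minus strand: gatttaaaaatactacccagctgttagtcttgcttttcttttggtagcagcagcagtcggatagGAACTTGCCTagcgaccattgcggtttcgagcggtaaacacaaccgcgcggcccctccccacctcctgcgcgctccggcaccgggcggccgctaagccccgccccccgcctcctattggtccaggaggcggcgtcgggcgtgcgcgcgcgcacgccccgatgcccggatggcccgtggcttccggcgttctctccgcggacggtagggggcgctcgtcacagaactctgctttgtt
Ccng1, chr11:40755237-40755536, minus strand: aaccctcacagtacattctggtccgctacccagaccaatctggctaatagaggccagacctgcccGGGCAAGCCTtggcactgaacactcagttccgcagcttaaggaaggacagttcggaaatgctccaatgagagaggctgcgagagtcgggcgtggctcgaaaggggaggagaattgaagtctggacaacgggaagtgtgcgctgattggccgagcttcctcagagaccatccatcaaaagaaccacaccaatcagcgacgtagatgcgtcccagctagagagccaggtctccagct
The exact match in Cdkn1a spans 32 bases, chr17:29090906-29090937, with a spacer of 12 bases, and lies 73 to 42 bases before that transcript start. The bases directly after its second unit, tgacatgttc, depart from the consensus only in the first base, so the search did not count them. A pair made of that unit and these bases would have no spacer, so the exact match need not be the p53 site. The same window holds the letters CATG 3 times and 61.1% of all windows hold these letters. A second start of Cdkn1a lies 2790 bases downstream, and its window holds no unit. These matches describe letters, and no binding was measured.

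The array values are on a log2 scale as deposited, so a difference of 1 is a factor of 2 where the scale is linear, and levels of different genes cannot be ranked against each other because probe sets differ in brightness. Array medians ran from 7.87 to 7.96 in GFP+ cells and from 8.19 to 8.29 in GFP- cells, and arrays of 1 group correlated across genes with r of 0.988 to 0.995. S100a5 was higher in GFP+ than in GFP- cells by 1.21 in vehicle mice and 1.15 in smoke mice (limma, adjusted p = 2.88e-06 and 6.45e-06), and Omp, the marker of mature olfactory neurons, was between 18.06 and 18.29 on every array. The list of 10 immune cell markers averaged 7.69 to 8.27 on GFP+ arrays and 12.25 to 13.48 on GFP- arrays. All 10 were above the level of vomeronasal receptors in GFP- cells, and 8 of the 10 in GFP+ cells. The 7 measured markers of globose basal and dividing cells averaged 5.72 to 6.12 and 8.24 to 9.72. The 6 horizontal basal cell markers averaged 5.005 to 5.40 in all, with 0 of 6 above that level in GFP+ cells and 1 of 6 in GFP- cells. That level is the 95th percentile of 319 vomeronasal receptor genes, 6.14 to 6.78 per array, and stands for probe sets of genes this tissue should lack. The Y-linked genes averaged 4.13 to 6.57 on the arrays of replicate 1 of both exposures and 9.99 to 11.35 on all others. Within smoke pool 1 they averaged 6.57 on the GFP- array and 4.26 on the GFP+ array, and the cause was not tested. In vehicle pool 1 they averaged 4.53 and 4.13. The sexes were thus not mixed alike in all pools.

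The comparison of smoke with vehicle asks whether p53 target RNA differed after the odor. Cdkn1a was higher in smoke than in vehicle mice in both fractions, with differences of 0.55 (GFP-) and 0.30 (GFP+), and Zmat3 was higher by 0.41 in GFP- cells. None of these differences passed the adjustment over all genes. In GFP- cells 0 of 7 measured targets passed an adjusted p of 0.05, where 0.128% of all genes did, and 2 of 7 (Cdkn1a and Zmat3) had smoke and vehicle values that did not overlap, as did 2.73% of all genes. In GFP+ cells 0 of 7 passed, where 0.108% of all genes did, and 0 of 7 had values that did not overlap, against 2.99% of all genes. By an unadjusted p under 0.05 in limma, 2 of 7 in GFP- cells and 1 of 7 in GFP+ cells (Cdkn1a) lay past it, as did 5.72% and 4.8% of all genes. Because the targets were chosen with earlier results of these data known, neither these counts nor those below are an independent test against all genes. The median difference of the 7 targets was 0.0026 in GFP- cells and -0.054 in GFP+ cells, beside 0.011 and -0.0044 over all genes.

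**Figure D1:**
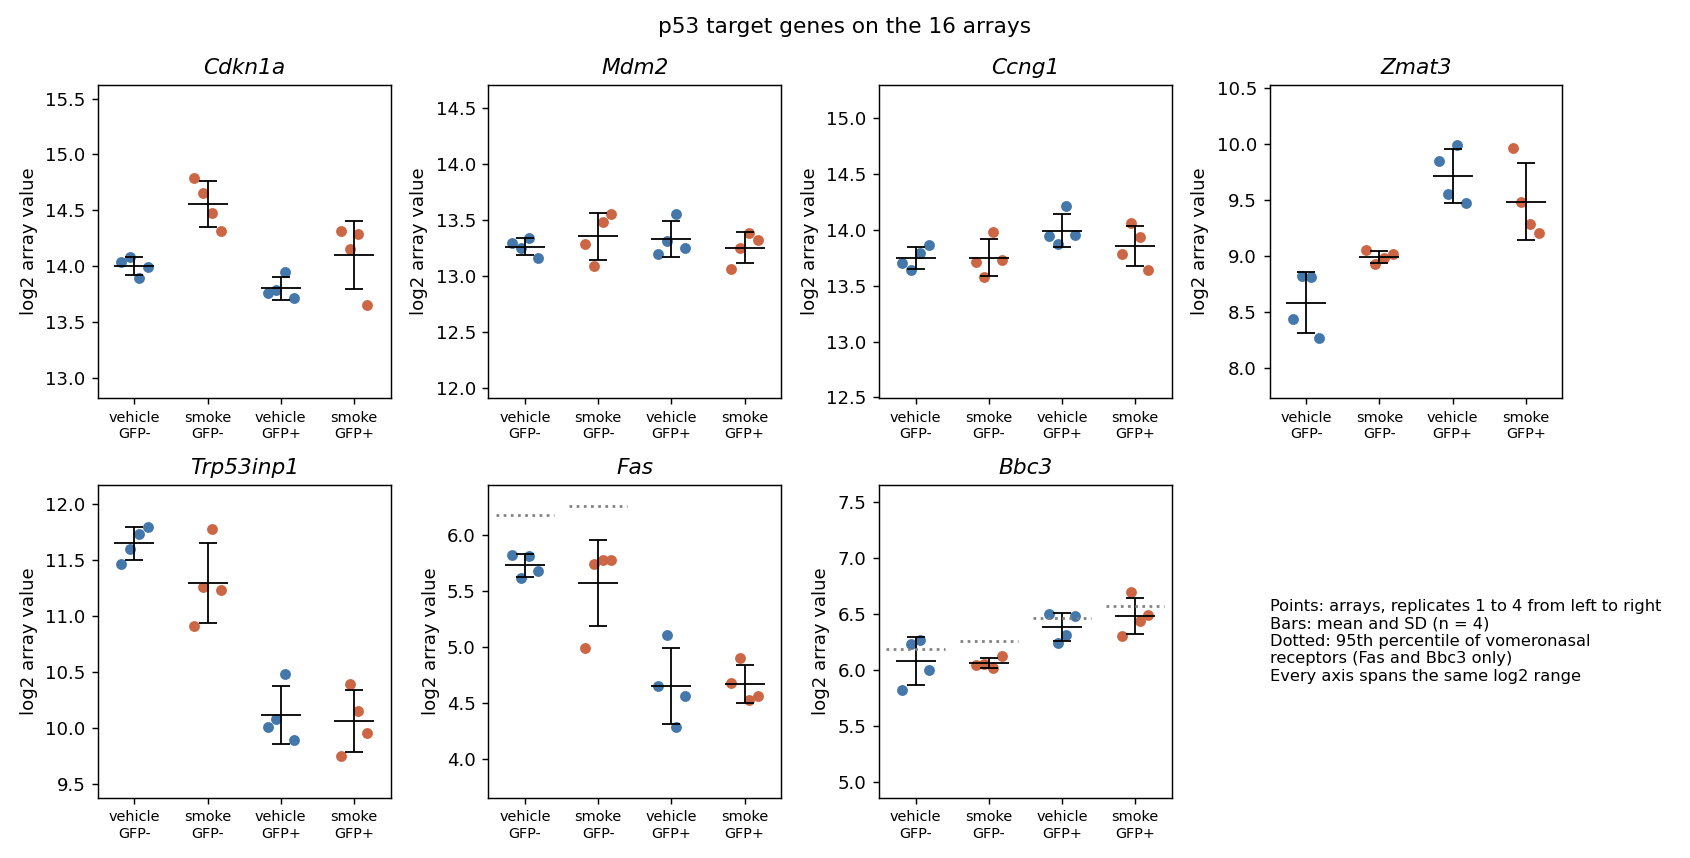
Log2 array values of the 7 measured p53 targets by group, with points for arrays, bars for the mean and SD of 4 arrays, and dotted lines for the vomeronasal receptor level in the panels of Fas and Bbc3. Every axis spans the same log2 range, and the dotted lines of the GFP+ groups of Fas, at 6.57 and 6.46, lie above its panel; the 4 smoke GFP- arrays of Cdkn1a, 14.31 to 14.79, all lie above the 4 vehicle GFP- arrays.

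Cdkn1a, which encodes the CDK inhibitor p21, measured 14.79, 14.65, 14.47 and 14.31 in smoke GFP- cells and 14.04, 14.08, 13.90 and 13.996 in vehicle GFP- cells. All 4 smoke values lay above all 4 vehicle values. The means were 14.56 ± 0.21 and 14.003 ± 0.08 (SD, n = 4), a difference of 0.55 (SE 0.14, 95% interval 0.25 to 0.85), which is 1.47-fold. The unadjusted p in limma was 0.00119, the rank by p was 68 of 19505 genes, and the adjusted p was 0.342. The exact two-sided permutation test gave p = 0.0286, the smallest that 4 arrays against 4 allow. In bulk fractions, more cells of a type and more RNA per cell cannot be told apart.

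In GFP+ cells Cdkn1a measured 14.31, 14.16, 14.28 and 13.66 in smoke mice and 13.76, 13.78, 13.95 and 13.71 in vehicle mice. The first 3 smoke arrays lay above every vehicle array, and the smoke array of replicate 4 lay below all of them. The means were 14.10 ± 0.30 and 13.80 ± 0.10, a difference of 0.30 (SE 0.14, limma adjusted p = 0.999, exact permutation p = 0.143). Without smoke GFP+ replicate 4 the difference was 0.45 (limma adjusted p = 0.495). That array had the highest mean of the 9 measured sustentacular cell markers among GFP+ arrays, 12.73, against 11.78, 12.41 and 11.86 on the other smoke GFP+ arrays and 11.58 to 12.04 on the vehicle ones, and the part of these cells in the Cdkn1a value was not tested. In smoke GFP- cells the same list averaged 12.14, 12.18, 12.00 and 12.68 against 12.21 to 12.68 in vehicle GFP- cells.

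Because both fractions of a pool come from the same 3 mice, the pool is the unit of exposure. The mean of both fractions for Cdkn1a was 14.55, 14.40, 14.38 and 13.98 for the smoke pools, whereas the vehicle pools had 13.90, 13.93, 13.92 and 13.86. All smoke pools lay above all vehicle pools. The difference was 0.43 (SE 0.12, limma p = 0.0045, adjusted p = 0.822, exact permutation p = 0.0286), and it ranged from 0.35 to 0.54 when any 1 pool was left out. Among the 7 targets, 0 passed the adjustment in this comparison, where 0.0103% of all genes did, and 1 (Cdkn1a) had an unadjusted p under 0.05 in limma, as did 4.11% of all genes. The same gene had pools that did not overlap, where 2.27% of all genes did. The choice of the targets with earlier results known limits these counts too. The other 6 targets differed by -0.21 to 0.09 in pool means, and their groups of pools overlapped.

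Ccng1 encodes cyclin G, an atypical cyclin that p53 induces and that acts on the Mdm2 pathway. It measured 13.71, 13.58, 13.98 and 13.73 in smoke GFP- cells and 13.70, 13.64, 13.79 and 13.86 in vehicle GFP- cells, a difference of 0.0026 (SE 0.12, 95% interval -0.25 to 0.26). In GFP+ cells it measured 13.78, 14.06, 13.93 and 13.64 in smoke mice and 13.94, 13.87, 14.21 and 13.95 in vehicle mice, a difference of -0.14 (95% interval -0.39 to 0.12). The smoke and vehicle values overlapped in both fractions.

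Mdm2, the ubiquitin ligase that limits p53, measured 13.29, 13.09, 13.48 and 13.55 in smoke GFP- cells and 13.29, 13.25, 13.33 and 13.16 in vehicle GFP- cells. The difference was 0.093 (95% interval -0.16 to 0.35). In GFP+ cells its values were 13.06, 13.25, 13.38 and 13.32 in smoke mice and 13.19, 13.31, 13.55 and 13.25 in vehicle mice, a difference of -0.074 (95% interval -0.33 to 0.18). Over all 16 arrays Mdm2 ranged by 0.50, the narrowest range of the 7 targets, against 1.13 for Cdkn1a and 2.05 for Trp53inp1.

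Zmat3 encodes a zinc finger protein that binds RNA and takes part in splicing. It measured 9.05, 8.93, 8.98 and 9.02 in smoke GFP- cells and 8.44, 8.82, 8.81 and 8.27 in vehicle GFP- cells. The lowest smoke value exceeded the highest vehicle value, 8.93 against 8.82, and the 4 smoke arrays were close together. The difference was 0.41 (SE 0.17, limma p = 0.0296, adjusted p = 0.845, exact permutation p = 0.0286). In GFP+ cells the values were 9.97, 9.49, 9.29 and 9.20 in smoke mice and 9.85, 9.56, 9.99 and 9.47 in vehicle mice. They overlapped, with a difference of -0.23 (limma adjusted p = 0.999).

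Trp53inp1, whose product is a nuclear p53 cofactor that also acts in autophagy, measured 10.91, 11.26, 11.78 and 11.23 in smoke GFP- cells and 11.47, 11.60, 11.73 and 11.80 in vehicle GFP- cells. The smoke arrays of replicates 1, 2 and 4 lay below every vehicle array, and that of replicate 3 lay within their range. The difference was -0.36 (SE 0.18, limma adjusted p = 0.876, exact permutation p = 0.114). The immune list averaged 12.25, 12.91, 13.39 and 12.35 on the same smoke arrays, highest on replicate 3 where Trp53inp1 was highest, and 12.70 to 13.48 on the vehicle ones; its part in the difference was not tested. In GFP+ cells Trp53inp1 measured 9.75, 10.40, 10.15 and 9.95 in smoke mice and 10.01, 10.08, 10.49 and 9.89 in vehicle mice, a difference of -0.054.

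The death receptor gene Fas and Bbc3, which encodes the BH3-only protein PUMA, lay at or below the vomeronasal receptor level in all 4 groups, so their differences are given without folds. In GFP- cells Fas measured 4.996, 5.74, 5.78 and 5.78 in smoke mice and 5.82, 5.62, 5.82 and 5.68 in vehicle mice, a difference of -0.16. In GFP+ cells it measured 4.68, 4.90, 4.53 and 4.56 in smoke mice and 4.66, 5.11, 4.28 and 4.56 in vehicle mice, a difference of 0.016. Smoke and vehicle arrays overlapped in both fractions. Bbc3 measured 6.05, 6.06, 6.02 and 6.13 in smoke GFP- cells and 5.82, 6.23, 6.27 and 5.995 in vehicle GFP- cells, a difference of -0.017. Its GFP+ values were 6.31, 6.69, 6.43 and 6.49 in smoke mice and 6.50, 6.24, 6.31 and 6.48 in vehicle mice, a difference of 0.10, again with overlap.

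**Figure D2:**
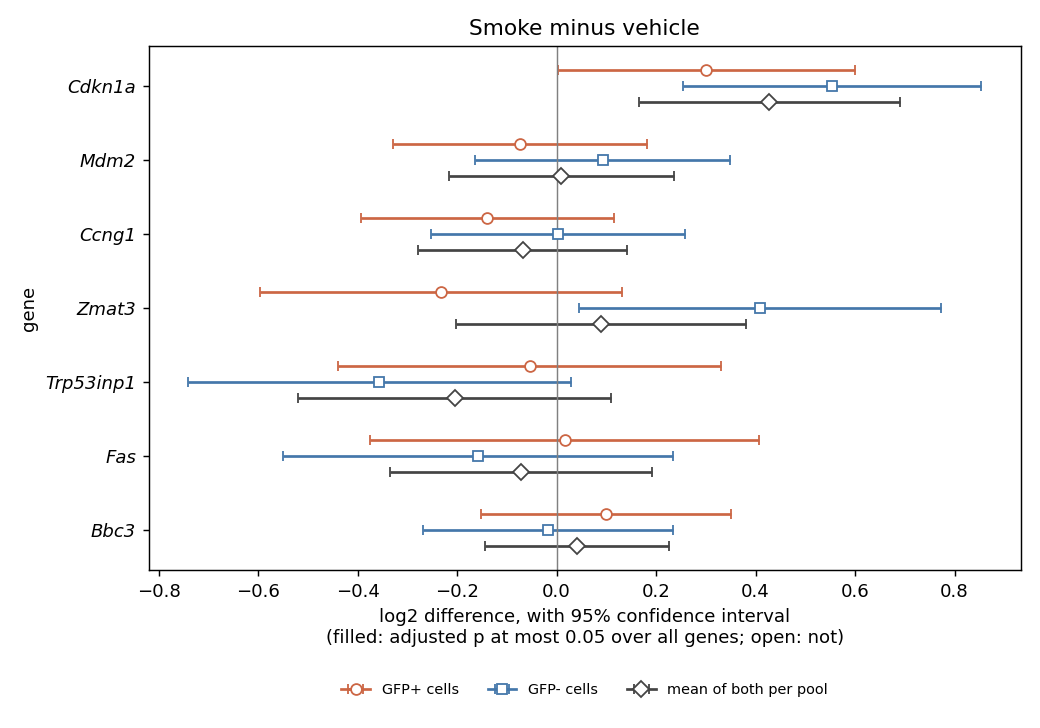
Smoke minus vehicle in log2 for each measured target, with 95% confidence intervals, in GFP+ cells (circles), GFP- cells (squares) and the mean of both fractions of a pool (diamonds). All symbols are open because no target passed an adjusted p of 0.05; Cdkn1a lay above 0 in all 3 comparisons, at 0.30, 0.55 and 0.43.

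The sort compares recently active GFP+ neurons with the GFP- rest of the same pools, and here several targets differed. In vehicle mice Zmat3 was higher in GFP+ cells, and Trp53inp1 and Fas were lower. In smoke mice these differences passed again, together with a higher Bbc3 and a lower Cdkn1a. In all, 3 of 7 targets passed in vehicle mice (1 higher, 2 lower), where 39.6% of all genes passed (24.2% higher, 15.4% lower), and 5 of 7 in smoke mice (2 higher, 3 lower), where 32.7% passed (18.3% higher, 14.4% lower). The count of 3 of 7 in vehicle mice is near the share of all genes. Values did not overlap for 4 of 7 targets in vehicle mice, against 39% of all genes, and for 5 of 7 in smoke mice, against 29.8%. The median difference of the 7 targets was 0.066 in vehicle mice and -0.10 in smoke mice, beside 0.17 and 0.15 over all genes, so the values relative to these medians are also given. Over all genes, 4728 were higher and 2998 lower in vehicle mice, and 12817 and 2269 after each array was centred on its median, which moved the median difference to 0.51. The same counts in smoke mice were 3574 and 2799, and 12173 and 2095 after centring, with a median of 0.47.

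Trp53inp1 had the largest sort difference of the 7 targets. In vehicle mice it was 10.12 ± 0.26 in GFP+ and 11.65 ± 0.15 in GFP- cells, a 2.90-fold lower level (-1.53, SE 0.18, limma adjusted p = 3.81e-06), or -1.70 relative to the median gene. In smoke mice it was 10.06 ± 0.28 and 11.30 ± 0.36 (-1.23, limma adjusted p = 5.21e-05), or -1.38 relative to the median gene. Within each of the 8 pools the GFP+ value was the lower, with differences of -1.91 to -0.86 (log2). Exact sign swaps within the 4 pools of an exposure cannot give a p below 0.125, and gave that value in both exposures. Its order of groups followed the fractions, with every GFP- array above every GFP+ array, and neighbouring groups within a fraction overlapped.

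Zmat3 was 9.72 ± 0.24 in GFP+ and 8.58 ± 0.27 in GFP- cells of vehicle mice, higher by 1.13 (SE 0.17, 2.19-fold, limma adjusted p = 6.01e-05), or 0.97 relative to the median gene. In smoke mice the difference was 0.49 (SE 0.17, 1.41-fold, limma adjusted p = 0.0374), or 0.34 relative to the median gene. The GFP+ value was the higher within each of the 8 pools. The call in smoke mice was lost when any of 6 of the 8 smoke arrays was left out, all but GFP+ replicates 3 and 4, with adjusted p up to 0.128 (limma) without GFP+ replicate 1. With arrays centred on their medians it was 0.81.

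Cdkn1a passed in smoke mice alone, which is not a test of the exposures against each other. In smoke mice the GFP+ level fell by 0.45 on the log2 scale (SE 0.14, limma adjusted p = 0.0214), which is 1.37-fold, or -0.60 relative to the median gene. The within-pool differences were -0.47, -0.50, -0.19 and -0.66. In vehicle mice they were -0.28, -0.30, 0.05 and -0.28, with a mean of -0.20 (limma adjusted p = 0.271), or -0.37 relative to the median gene. The call in smoke mice was lost without smoke GFP- replicate 1 or 2 or GFP+ replicate 4 (limma adjusted p = 0.064, 0.0568 and 0.0691). It was also lost with arrays centred on their medians, at -0.13 (limma adjusted p = 0.398), where the vehicle difference turned to 0.14. By group means the order of Cdkn1a from low to high was vehicle GFP+, vehicle GFP-, smoke GFP+ and smoke GFP-. Vehicle GFP+ overlapped with vehicle GFP-, and vehicle GFP- with smoke GFP+. Smoke GFP+ and smoke GFP- did not overlap, but only just, since the highest smoke GFP+ array was at 14.3127 and the lowest smoke GFP- array at 14.3129.

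Fas fell from GFP- to GFP+ cells, with differences of -1.08 in vehicle and -0.91 in smoke mice (limma adjusted p = 2.03e-04 and 0.00121), with all fractions at or below the vomeronasal receptor level. No GFP+ array reached a GFP- array within vehicle mice, 5.11 against 5.62, or within smoke mice, 4.90 against 4.996. Bbc3 was higher in GFP+ cells by 0.42 in smoke mice (limma adjusted p = 0.0127) and by 0.30 in vehicle mice (limma adjusted p = 0.0523), at the same low level. Relative to the median gene these differences of Bbc3 were 0.27 and 0.14. The vomeronasal receptor level was itself higher in GFP+ than in GFP- cells. It was 6.57 against 6.26 in smoke mice and 6.46 against 6.19 in vehicle mice. The vehicle difference of Bbc3 passed when vehicle GFP- replicate 2 or 3 or vehicle GFP+ replicate 2 was left out (limma adjusted p = 0.0405, 0.0327 and 0.0461), and with arrays centred on their medians it was 0.65. The immune list and the list of dividing cells, 12.25 to 13.48 and 8.24 to 9.72 in GFP- cells, also differed between the fractions in the direction of Trp53inp1, Fas and Cdkn1a. The list mean of immature olfactory neurons, 11.28 to 11.52 in GFP+ and 12.61 to 12.83 in GFP- cells, moved the same way. Its genes were divided. Ablim1, Gng8, Gap43 and Dpysl5 were lower in GFP+ cells in both exposures, Ablim1 at 4.88 against 10.33 in vehicle mice. Dcx, Stmn4 and Tubb3 were higher in GFP+ cells in both exposures, Dcx at 13.96 against 13.44 in vehicle mice. Crmp1 was higher in GFP+ cells in vehicle mice and lower in smoke mice. The list mean of microvillar cells and ionocytes, 7.16 to 7.56 and 10.12 to 10.50, was higher in GFP- cells too. That of glands and respiratory epithelium, 6.85 to 7.96 and 8.06 to 9.51, was higher there mainly through Ltf. Ltf was 7.01 in GFP+ and 14.43 in GFP- cells of vehicle mice, and 6.96 and 14.27 in smoke mice. By group means in smoke mice, Muc5ac, Muc5b, Obp1a, Reg3g and Bpifb4 were higher in GFP+ cells, and Obp2a and Scgb1a1 were lower. In vehicle mice only Muc5ac and Scgb1a1 were higher in GFP+ cells. Alas2, the 1 red blood cell marker measured, was also higher in GFP- cells. The mature neuron list went the other way, 16.20 to 16.30 and 15.92 to 16.14, and the remaining lists overlapped. The part of these cell types in the sort differences of the targets was not tested. Mdm2 differed by 0.066 and -0.10 between the fractions (95% intervals -0.19 to 0.32 and -0.36 to 0.16), and Ccng1 by 0.24 and 0.10 (95% intervals -0.011 to 0.50 and -0.15 to 0.36). With arrays centred on their medians, Mdm2 was higher in GFP+ cells by 0.41 in vehicle mice and 0.22 in smoke mice (limma adjusted p = 0.00484 and 0.0925), and Ccng1 by 0.59 and 0.42 (2.92e-04 and 0.00386). Ccng1 was, as deposited, higher in GFP+ cells within each of the 4 vehicle pools, and the arrays of the fractions did not overlap there, but the limma adjusted p was 0.120.

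**Figure D3:**
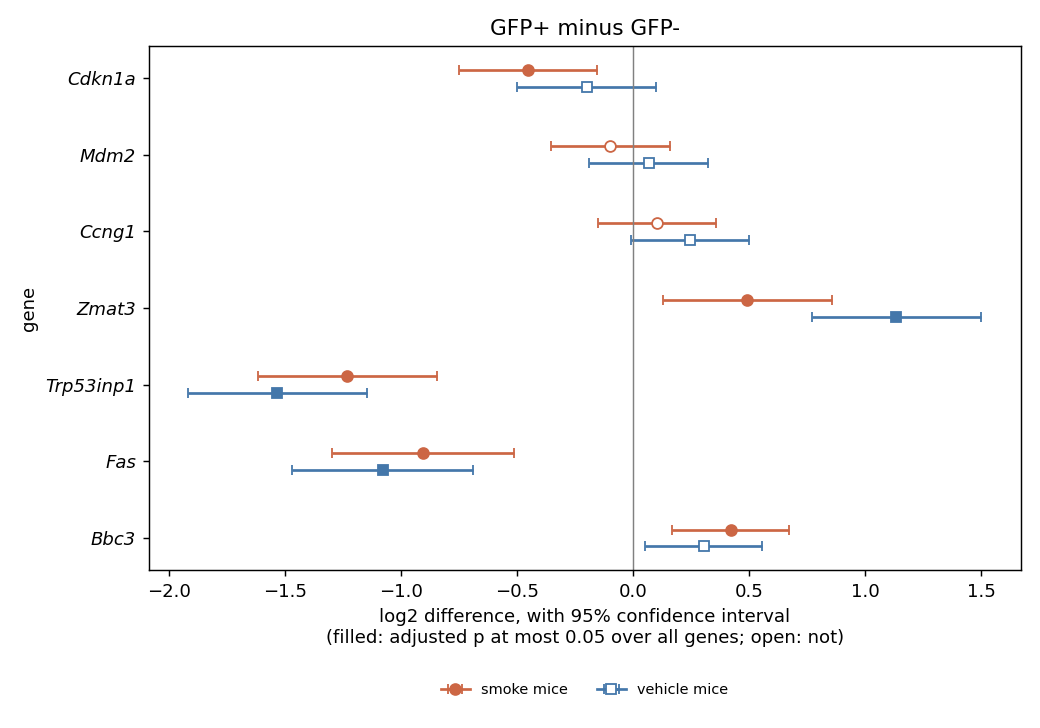
GFP+ minus GFP- in log2 for each measured target in smoke mice (circles) and vehicle mice (squares), with 95% confidence intervals; filled symbols passed an adjusted p of 0.05 over all genes. Trp53inp1 and Fas lie below 0 and Zmat3 above 0 in both exposures, and Mdm2 and Ccng1 are open in both.

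The ratio of the fractions asks whether the smoke difference itself differed between GFP+ and GFP- cells. The number of targets that passed was 0 of 7, where 0.174% of all genes did, and 1 of 7 (Zmat3) had an unadjusted p under 0.05 in limma, as did 5.71% of all genes. For Zmat3, the pool differences were 0.92, 0.56, 0.30 and 0.19 under smoke odor and 1.41, 0.74, 1.18 and 1.20 under vehicle. Smoke pools 2, 3 and 4 lay below every vehicle pool, and smoke pool 1 lay above vehicle pool 2. The smoke minus vehicle difference of these was -0.64 (SE 0.24, 95% interval -1.16 to -0.13, limma adjusted p = 0.825, exact permutation p = 0.0571). The smoke difference of Zmat3 was thus 0.41 in GFP- and -0.23 in GFP+ cells, and this contrast of signs did not pass the adjustment. For Cdkn1a the ratio differed by -0.25 (95% interval -0.68 to 0.17, limma adjusted p = 0.923), so a difference between the fractions in its smoke difference was not shown. The other 5 targets had ratio differences of -0.17 to 0.30.

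**Figure D4:**
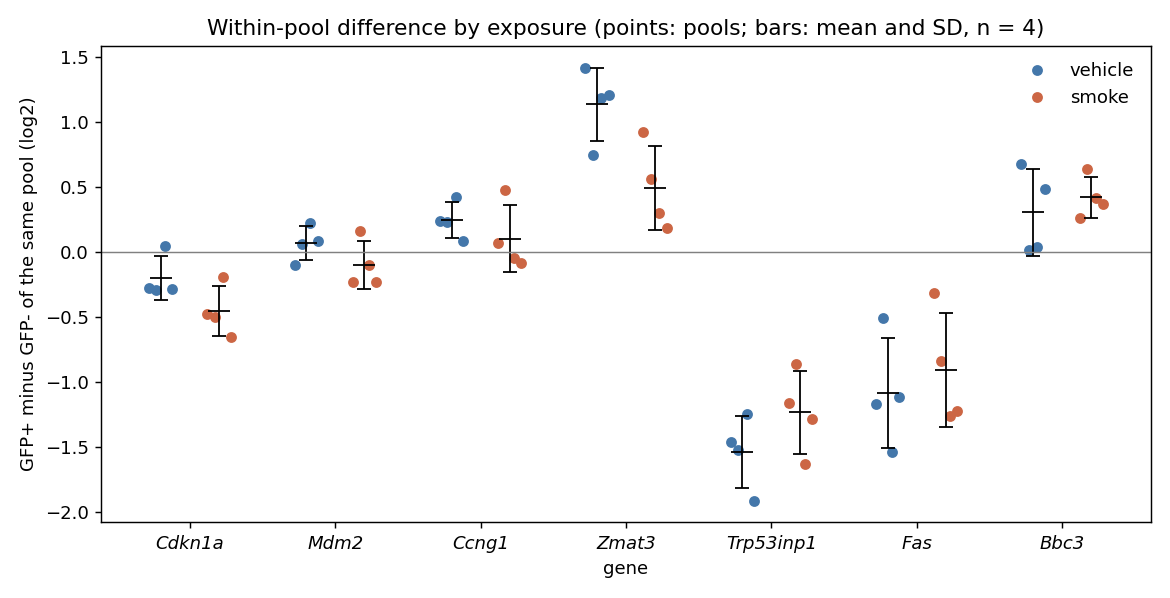
GFP+ minus GFP- of the same pool in log2 for each measured target, with points for pools and bars for the mean and SD of 4 pools, in vehicle and smoke mice. Zmat3 lies at 0.74 to 1.41 in vehicle pools and 0.19 to 0.92 in smoke pools, and Trp53inp1 and Fas lie below 0 in every pool.

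Genes around the 7 targets were counted in fixed lists: 10 regulators of p53, 30 other p53 targets, 12 members of the BCL2 family, 5 other CDK inhibitors and 4 genes of the Fas pathway. In the smoke comparisons of GFP+ cells, GFP- cells, pool means and the ratio, 0 genes of each list passed (limma), where 0.108%, 0.128%, 0.0103% and 0.174% of all genes did, and at such shares a count of 0 sets no list apart. By an unadjusted p under 0.05, the count was 0 in each list in GFP+ cells and pool means. It was 1 (Tigar, a regulator of glycolysis) in GFP- cells and 2 (Plk2 and Pmaip1) in the ratio, all among the 30 other targets, where 5.72% and 5.71% of all genes lay past it, so these counts are near the share of all genes. Tigar was higher in smoke GFP- cells by 0.33 (limma adjusted p = 0.854). Pmaip1, which encodes the BH3-only protein NOXA, had a difference of -0.45 in the same comparison (limma adjusted p = 0.898). Plk2, a kinase gene that responds to neuronal activity, had a GFP+ over GFP- difference of -3.96 in smoke and -4.87 in vehicle pools, whose ratio of 0.91 did not pass (limma adjusted p = 0.85). The genes named for each list had smoke differences of -0.54 to 0.47 (log2) in either fraction, among them Aen at -0.23, Bmf at -0.21, Bcl2l11 at -0.27, Casp8 at -0.33 and Fasl at 0.22 in GFP+ cells. In GFP- cells Hrk differed by 0.23, Bcl2l2 by 0.21, Fadd by 0.25, Cdkn1b by -0.54 and Cdkn2b by -0.19. Of these, Fasl and Cdkn2b were at or below the vomeronasal receptor level in all 4 groups. The median over the 30 other targets was 0.057 in GFP+ and -0.042 in GFP- cells.

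The p53 gene itself, Trp53, was not analysed here. Mdm4, which encodes an inhibitor of p53 related to Mdm2, differed between smoke and vehicle by -0.13 in GFP+ and -0.22 in GFP- cells (limma adjusted p = 0.999 and 0.898). Trp63, the family member of basal cells, was at or below the vomeronasal receptor level in all 4 groups, with group means of 4.57 to 4.79. Cdkn2a, whose product restrains Mdm2, was also at or below it in all 4 groups.

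Between the fractions, 4 of the 10 regulators passed in each exposure, 1 higher and 3 lower in GFP+ cells, near the 39.6% of all genes that passed in vehicle mice and the 32.7% in smoke mice. The lower ones were Chek2 and Chek1, kinases of the DNA damage checkpoint, and Mdm4, and the higher one was Atr, a kinase that senses damaged DNA. From GFP- to GFP+ cells Chek1 differed by -0.69 in vehicle and -0.62 in smoke mice, Mdm4 by -0.48 and -0.40, and Atr by 0.45 and 0.52. Chek2 was at or below the vomeronasal receptor level in GFP+ cells, and its level in GFP- cells was at least 1.97-fold higher in vehicle and at least 1.73-fold higher in smoke mice (limma adjusted p = 2.56e-04 and 4.60e-04).

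Of the 30 other p53 targets, 15 passed in vehicle mice, 4 higher and 11 lower in GFP+ cells, and 11 passed in smoke mice, 3 higher and 8 lower. Of all genes, 24.2% were higher and 15.4% lower in vehicle mice, and 18.3% and 14.4% in smoke mice, and the total of 11 in smoke mice is near the share of all genes, 32.7%. The leading ones were all lower: Btg2, an antiproliferative immediate early gene, by -5.06 and -4.47, and Plk2 by -4.87 and -3.96. Ckap2, a spindle protein gene of dividing cells, differed by -2.62 and -2.40, and Tap1, a peptide transporter of antigen presentation, by -1.999 and -1.73. The higher ones, named after their values were seen, were Polk, Tigar, Ercc5 and Ddb2 in vehicle mice and Ercc5, Polk and Xpc in smoke mice, by 0.33 to 0.72. Polk encodes a polymerase that copies damaged DNA, and Ercc5, Ddb2 and Xpc act in nucleotide excision repair. Lists higher in GFP- cells, among them those of immune, dividing and microvillar cells, moved with the lower genes, as given above. The list mean of immature neurons did too, although its genes were divided. The part of these cell types was not tested.

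Of the 12 BCL2 family genes, 7 passed in vehicle mice, 4 higher and 3 lower in GFP+ cells, and 6 in smoke mice, 3 higher and 3 lower, where 39.6% and 32.7% of all genes passed. Mcl1, which protects cells from apoptosis, differed by -2.22 in vehicle and -2.15 in smoke mice. Bcl2l2, another protective member, was higher by 0.62 and 0.50, and Bok, a pore-forming member, by 0.55 and 0.54. Bid was at or below the vomeronasal receptor level in both fractions, and Bak1 was at or below it in GFP+ cells, with a level in GFP- cells at least 1.34-fold higher in vehicle and at least 1.16-fold higher in smoke mice.

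Of the 5 other CDK inhibitors, 3 passed in each exposure, all lower in GFP+ cells, where 15.4% of all genes were lower in vehicle and 14.4% in smoke mice. Cdkn1b, which encodes p27 and is the family relative of Cdkn1a, was at or below the vomeronasal receptor level in GFP+ cells, and its level in GFP- cells was at least 33.4-fold higher in vehicle and at least 21.0-fold higher in smoke mice (limma adjusted p = 2.95e-10 and 1.46e-09). Cdkn2d differed by -0.75 and -0.77, and Cdkn2c by -1.56 in vehicle mice. In smoke mice Cdkn2c was at or below that level in GFP+ cells and at least 2.18-fold higher in GFP- cells. Cdkn1a, by comparison, differed by -0.20 and -0.45 between the same fractions. In the Fas pathway 1 of 4 genes passed in each exposure: Casp8, the caspase that Fas activates, at -4.04 and -4.22. Of all genes 39.6% and 32.7% passed, and a list of 4 genes is too short to set this count apart from these shares.

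**Figure D5:**
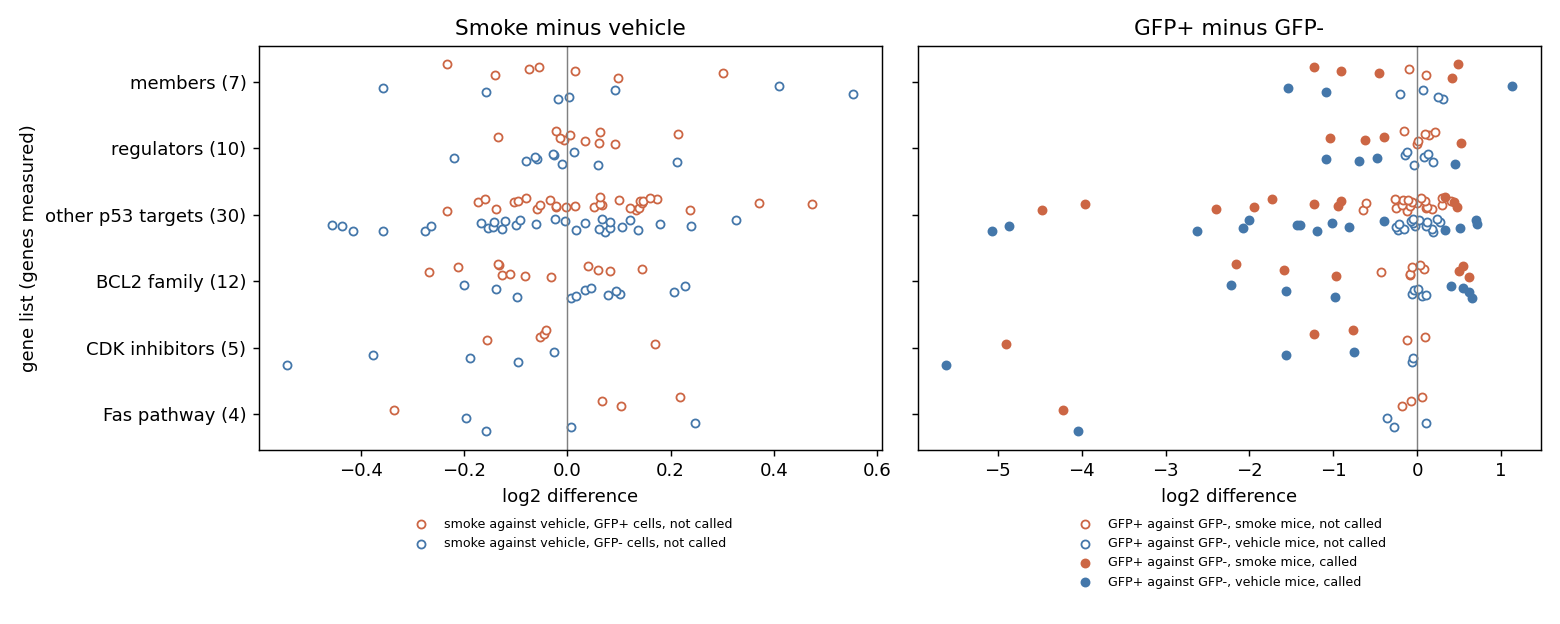
Log2 differences of every measured gene in the list of the 7 targets and in the 5 related lists, for smoke minus vehicle (left) and GFP+ minus GFP- (right), with filled points for genes past an adjusted p of 0.05. No point is filled in the left panel, where differences run from -0.54 to 0.55; in the right panel Btg2 lies at -5.06 in vehicle mice and -4.47 in smoke mice, and the points of genes at or below the vomeronasal receptor level in a fraction, such as Cdkn1b, are measured differences with no order.

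The genes whose values followed each target most closely were ranked by Pearson r over the 16 arrays, which share the sort, the exposure and the pools, so r is a description. For Cdkn1a they were Camk2n1 (r = 0.870), Coro1c (0.832), Ankrd13a (0.830), Exoc3l4 (0.791) and Cyfip2 (0.790). For Mdm2 they were Mettl2 (0.858), Slc31a2 (0.812) and Zfp637 (0.776), and for Ccng1 they were Rab4a (0.868), 1700009J07Rik (0.867) and Rnf4 (0.856). Trim30a, C1galt1 and Cyb561a3 followed Trp53inp1 at r of 0.980, 0.980 and 0.977. Nmnat2, Drd2 and Tshz3 followed Zmat3 at 0.954, 0.954 and 0.944. Tmc6, Cdca5 and S1pr4 followed Fas at 0.956, 0.955 and 0.951, and Mpp5, Armc1 and Zfp14 followed Bbc3 at 0.927, 0.926 and 0.923.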

How the data were processed

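The authors deposited log2 array values of Clariom S arrays, and the submitters' processing notes name Affymetrix Expression Console for them, with no version. The algorithm is not given in the sources used here, nor is the method by which the arrays had already been normalized to each other. Of the values, 0.946% exceed 16, the ceiling of the scanner's scale, so folds may be stretched. Of 28846 probe sets, 19572 had 1 gene symbol in the platform annotation. The probe set with the highest mean was taken for each gene, which left 19505 genes, 55 of them with more than 1 probe set. The series text also names another odor, bourgeonal, and the title and sample labels, which name cigarette smoke, were followed.

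Models were fitted to all genes with limma 3.58.1 (lmFit and eBayes) in R 4.3.3, with 4 group means over 16 arrays, and with 2 group means over the 8 pool means. Two-sided p-values were adjusted over all genes (Benjamini-Hochberg, threshold 0.05). Exact permutation tests over arrays or pools and sign swaps within pools stand beside them. Replicates are pools of different mice, and their number limits the precision. Same-pool fractions come from the same animals, so pools pair the arrays, and the residual r within a pool was 0.22, 0.091, 0.093 and 0.13 under smoke and 0.21, 0.082, 0.045 and 0.20 under vehicle. The main fit does not use this pairing, and a fit with the pool as a block is given with the alternatives. Fits were tested on simulated data.

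The members and the lists were chosen with earlier results of these data known. All listed targets are named, with S100a5, Omp, Mdm4 and Trp63, and Trp53 was to be named where measured. From each other list and comparison up to 4 genes past the threshold by smallest p were named, or else 2 by smallest p. For each target the 3 genes with the highest r were named, and 5 for Cdkn1a. The level of the vomeronasal receptors was chosen after the data were seen. A gene was called at or below it where the mean of its group was no higher than the 95th percentile of these receptors, averaged over the arrays of the group. A bound with 1 fraction there sets the other fraction's mean against values raised to each array's level. The promoter sequences are RefSeq's. Python 3.11.15 and matplotlib 3.10.9 served for motifs and figures.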

Additional observations from a re-analysis of the deposited data

Results flagged for a closer look

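The Fas value of smoke GFP- replicate 1, 4.996, was far from the other 3 arrays of its group, which lay between 5.74 and 5.78. The gap to the nearest was 0.946 of the range of the group, above Dixon's 95% critical value for 4 samples. The immune list was lowest on the same array among the GFP- arrays, at 12.25. Of 28 groups of values examined over the 7 targets, 1 was singled out in this way, and chance singles out about 1 in 20.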

How the results depend on the processing

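Over the 7 targets and 6 comparisons, 803 of 869 alternative values kept the direction and the side of the threshold, 18 lost a call, 11 gained one and 37 turned in sign. No alternative gave a called target in the smoke comparisons of GFP+ cells, GFP- cells, pool means or the ratio. The smoke difference of Cdkn1a was 0.48 to 0.64 in GFP- cells (limma adjusted p from 0.115 to 0.995) and 0.22 to 0.50 in GFP+ cells. The sort in vehicle mice called 3 targets, 6 with arrays centred on their medians, and 3 to 4 when an array was left out. The sort in smoke mice called 5 targets, 3 when only its own arrays were fitted, 1 without smoke pools 2 and 4, 3 without the pools numbered 1, and 3 to 5 when an array was left out. The fit with the pool as a replicate block (sort and ratio), and that with the replicate number as a block (all comparisons), changed no call: 0 targets in each smoke comparison, 3 in the vehicle sort and 5 in the smoke sort. The labels do not say that an equal number pairs smoke and vehicle pools, although the Y-linked level was low for number 1 in both exposures, and the residual r of equal numbers was 0.14, 0.077, 0.15 and 0.20 in GFP+ and 0.18, -0.071, 0.10 and -0.084 in GFP- cells.

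Signs turned mostly at differences near 0, and the cause was not tested. Without smoke pools 2 and 4, GFP+ smoke differences were -0.0473 (Fas) and -0.0117 (Bbc3), and the pool mean of Bbc3 differed by -0.0292. Without the pools numbered 1, values were 0.0134 (Trp53inp1, GFP+), -0.0008 (Ccng1, GFP-), 0.0653 (Fas, GFP-), -0.0522 (Fas, ratio), 0.0392 (Fas, pool mean) and -0.0035 (Zmat3, pool mean). Quantile normalization gave Ccng1 in GFP- cells -0.0069 over 16 arrays and -0.0061 within fractions, and Mdm2 -0.0100 in the vehicle sort. Array weights gave -0.0002 (Ccng1, GFP-) and -0.0148 (Mdm2, pool mean). Centred arrays gave 0.1418 for Cdkn1a in the vehicle sort and 0.2212 for Mdm2 in the smoke sort. With an array left out, signs turned in GFP+ cells for Mdm2 (-0.1179 to 0.0027), Fas (-0.1068 to 0.1673) and Trp53inp1 (-0.1657 to 0.0687). In GFP- cells they turned for Fas (-0.2276 to 0.0354), Bbc3 (-0.1039 to 0.0466) and Ccng1 (-0.0739 to 0.0595), in the ratio for Fas (-0.0195 to 0.3252), and in the vehicle sort for Mdm2 (-0.0098 to 0.1108). In pool means, with a pool left out, they turned for Mdm2 (-0.0349 to 0.0605), Fas (-0.1376 to 0.0233) and Zmat3 (-0.0048 to 0.1718). With the dimmest genes left out Fas was not tested. Low signal limits what Fas and Bbc3 can show.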
